A study of Homo sapiens with 15 samples.

Results

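NCI-N87 cells treated with trastuzumab were compared with NCI-N87 cells treated with vehicle, 3 libraries against 3, which are 6 of the 15 libraries of the series. NCI-N87 is an established gastric carcinoma cell line with an amplified HER2 gene (ERBB2), labelled WT in genotype. Trastuzumab was given at 1 µg/ml for 72 h, and the vehicle was an acetate and sorbitol buffer given for the same time. The 9 NCI-N87 libraries also include 3 from cells given 1 µg/ml T-DXd (trastuzumab deruxtecan) for 72 h, which enter here only where they show how the antibody alone differs from the conjugate. Every library is from 1 cell line, and the labels call the 3 libraries of a group biological replicates without saying how the cultures were separated. The comparison covered the 17394 of 18473 listed genes that passed the filter on low counts.

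HER2 is a receptor tyrosine kinase that has no known ligand of its own and signals as a partner of other members of the family, HER3 above all, through the PI3K-AKT and RAS-ERK pathways. Trastuzumab is an antibody against the extracellular part of HER2. Signaling through AKT keeps FOXO transcription factors out of the nucleus, and growth factor signaling through mTOR is known to raise lipid synthesis and the translation of ribosomal protein mRNAs. T-DXd joins a trastuzumab-sequence antibody to a topoisomerase I inhibitor by a cleavable linker.

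Libraries held 47990460 to 64623697 counts and were compared as CPM, that is, counts scaled to the library total after correction by TMM factors of 0.985 to 1.03. The epithelial markers EPCAM, CDH1, KRT8, KRT18, KRT19 and CLDN4 summed to 9033 to 9070 CPM with trastuzumab and 9578 to 9729 CPM with vehicle. The 7 leukocyte markers listed of 11 looked for summed to 28.8 to 30.4 CPM with trastuzumab and 27.1 to 27.9 CPM with vehicle, most of it CD68 at 22.1 to 24.8 CPM over the 6 libraries, while PTPRC, CD3E and MS4A1 were not among the listed genes. COL1A1 and VWF, the 2 listed of 12 fibroblast and endothelial markers, summed to 2.73 to 3.09 CPM with trastuzumab and 2.23 to 2.54 CPM with vehicle. Trastuzumab replicate 2 stood apart in RNA that a poly(A) library largely removes. Its rRNA genes summed to 21958 CPM, against 3103 and 4628 CPM in the other trastuzumab libraries and 4825 to 7639 CPM with vehicle, and its 7SL and 7SK genes to 47.2 CPM, against 2.89 and 3.41 CPM in the other trastuzumab libraries and 5.60 to 7.16 CPM with vehicle. On the first principal component, which held 26.3% of the variance over the 6 libraries, the trastuzumab libraries lay at 12.2, 23.2 and 8.98 and the vehicle libraries at -16.7, -13.0 and -14.7, so that the groups did not overlap.

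Trastuzumab changed many genes by small amounts. At an adjusted p under 0.05 (edgeR's quasi-likelihood test, Benjamini-Hochberg over all genes tested), 635 genes were higher and 1060 lower with trastuzumab, which is 9.74% of the genes tested (3.65% higher and 6.09% lower). "Called", "rose" and "fell" refer to this threshold below, and changes are log2 fold changes of trastuzumab over vehicle with the standard error of the fit. The median change of the genes that rose was 0.21, and that of the genes that fell was -0.14. Of the 1695 called genes, 303 were changed by at least 1.2-fold (247 higher and 56 lower), 80 by at least 1.5-fold and 39 by at least 2-fold. The rule for named genes, given below, asks among other limits for an average log2 CPM of at least 2, groups without overlap and no read-through symbol. The largest rise by that rule was 1.54-fold (ALPP), so the 2-fold rises were of genes that the rule left out. When the change itself was tested against 1.2-fold (glmTreat), 5 genes passed, which is 0.0287% of those tested, and each of them was higher with trastuzumab. For scale, T-DXd against vehicle gave 29.1% of the same genes higher and 29.5% lower, and T-DXd against trastuzumab gave 28.3% higher and 29.4% lower. The libraries are of bulk RNA, so fewer cells of a type and less RNA per cell cannot be told apart. Gene lists below were chosen with earlier results of these data known, so their counts and shares are a description.

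**Figure D1:**
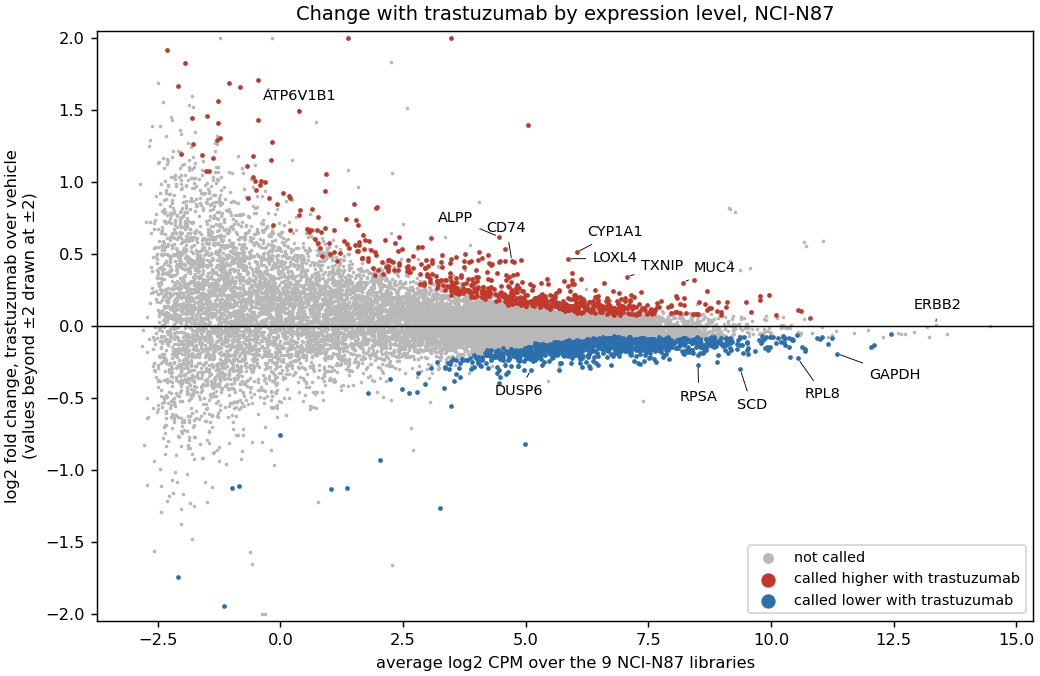
Change with trastuzumab against expression level. Each point is 1 of the 17394 genes tested, with the average log2 CPM over the 9 NCI-N87 libraries on the horizontal axis and the log2 fold change of trastuzumab over vehicle on the vertical axis (values beyond ±2 are drawn at ±2). The 635 genes called higher are red, the 1060 called lower are blue and the rest are grey; CYP1A1 stands out above the cloud and ERBB2 lies on the line of no change.

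The number of calls rested on having 3 libraries a group. It was 1108, 1191 and 1166 without trastuzumab replicate 1, 2 and 3, and 1055, 1327 and 993 without vehicle replicate 1, 2 and 3. With 1 library left out, 371 to 420 genes were higher and 622 to 934 lower, and list counts without a library, given below, are to be read beside these totals. In all, 666 genes, 218 higher and 448 lower, were called whichever of the 6 libraries was left out. The balance of the directions moved with the scaling: with upper-quartile factors 754 genes were higher and 818 lower, and with total counts alone 836 were higher and 529 lower.

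ERBB2, which encodes HER2 (gene ID 2064, chromosome 17, 39688094 to 39728658 of GRCh38), showed no detectable change in its mRNA. It measured 10741, 10441 and 10570 CPM in the trastuzumab libraries, against 10583, 10604 and 10430 CPM in the vehicle libraries. The groups overlapped, and ERBB2 changed by 0.01 ± 0.01 (adjusted p = 0.757, edgeR; exact permutation test over the 6 samples, two-sided, p = 0.9, where 3 against 3 cannot go below 0.1). In length-scaled units ERBB2 averaged 4855 ± 140 TPM with trastuzumab and 4669 ± 61.2 TPM with vehicle (SD, n = 3 each). ERBB3, which encodes HER3, the partner of HER2 that binds PI3K, was at 204, 204 and 198 CPM with trastuzumab and 187, 185 and 186 CPM with vehicle. Every trastuzumab library was above every vehicle library, and ERBB3 rose by 0.12 ± 0.02 (adjusted p = 0.00469, edgeR). GRB7, an adaptor that binds HER2 and lies next to ERBB2 in the amplified region, rose by 0.10 ± 0.02, at 1572, 1526 and 1562 CPM with trastuzumab and 1448, 1436 and 1450 CPM with vehicle. Of 22 tested genes of the HER family, its ligands and its regulators, ERBB3 and GRB7 were the 2 that passed the test (9.1% higher against 3.65% of all genes), and the 9 ligands tested had no call. The growth factor ligands AREG and TGFA were among those 9: AREG changed by -0.05 ± 0.04 and TGFA by 0.04 ± 0.04 with trastuzumab. Both were higher with T-DXd than with trastuzumab, AREG by 0.77 and TGFA by 1.21 on the log2 scale.

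Other genes of the 17q12 amplicon moved in both directions, 3 higher and 3 lower of 26 tested, with a median of 0.00. Each share was 11.5%, against 3.65% higher and 6.09% lower of all genes. FBXL20, an F-box protein, was at 122, 119 and 120 CPM with trastuzumab and 106, 101 and 108 CPM with vehicle (0.19 ± 0.03). GSDMB, a member of the gasdermin family of pore-forming proteins, rose by 0.14 ± 0.03. RPL19, a protein of the large ribosomal subunit, fell by 0.15 on the log2 scale, and PSMD3, a proteasome subunit, fell by 0.08. The 3 falls became 1 without trastuzumab replicate 3, without vehicle replicate 1 or 3, and with total counts alone, whereas 3 genes rose in each of these.

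Genes that respond to ERK signaling gave a mixed picture. Of 30 tested, 1 rose (3.3% against 3.65% of all genes) and 4 fell (13.3% against 6.09%), with a median of 0.03 against 0.01 over all genes tested. DUSP6, a phosphatase that inactivates ERK and is itself induced by ERK, was at 22.1, 24.4 and 24.0 CPM with trastuzumab and 28.3, 30.5 and 28.3 CPM with vehicle. The groups did not overlap, and DUSP6 changed by -0.30 ± 0.05 (adjusted p = 0.000949, edgeR). IER3, an early response gene, changed by -0.17 ± 0.04. DUSP1, a phosphatase of stress kinases and ERK, went the other way, at 11.96, 14.4 and 13.5 CPM with trastuzumab and 10.9, 11.6 and 10.8 CPM with vehicle (0.26 ± 0.07). With T-DXd both DUSP6 and IER3 were higher than with trastuzumab, by 1.10 and 1.03 (adjusted p = 5.98e-12 and 7.41e-13, edgeR), and higher than with vehicle, by 0.80 and 0.86. The number of genes of this group that fell was 1 without trastuzumab replicate 1 and 2 without vehicle replicate 1, IER3 had an adjusted p of 0.0503 without the first of these, and DUSP1 had one of 0.0934 to 0.126 without trastuzumab replicate 2 or 3 or vehicle replicate 1 or 3.

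**Figure D2:**
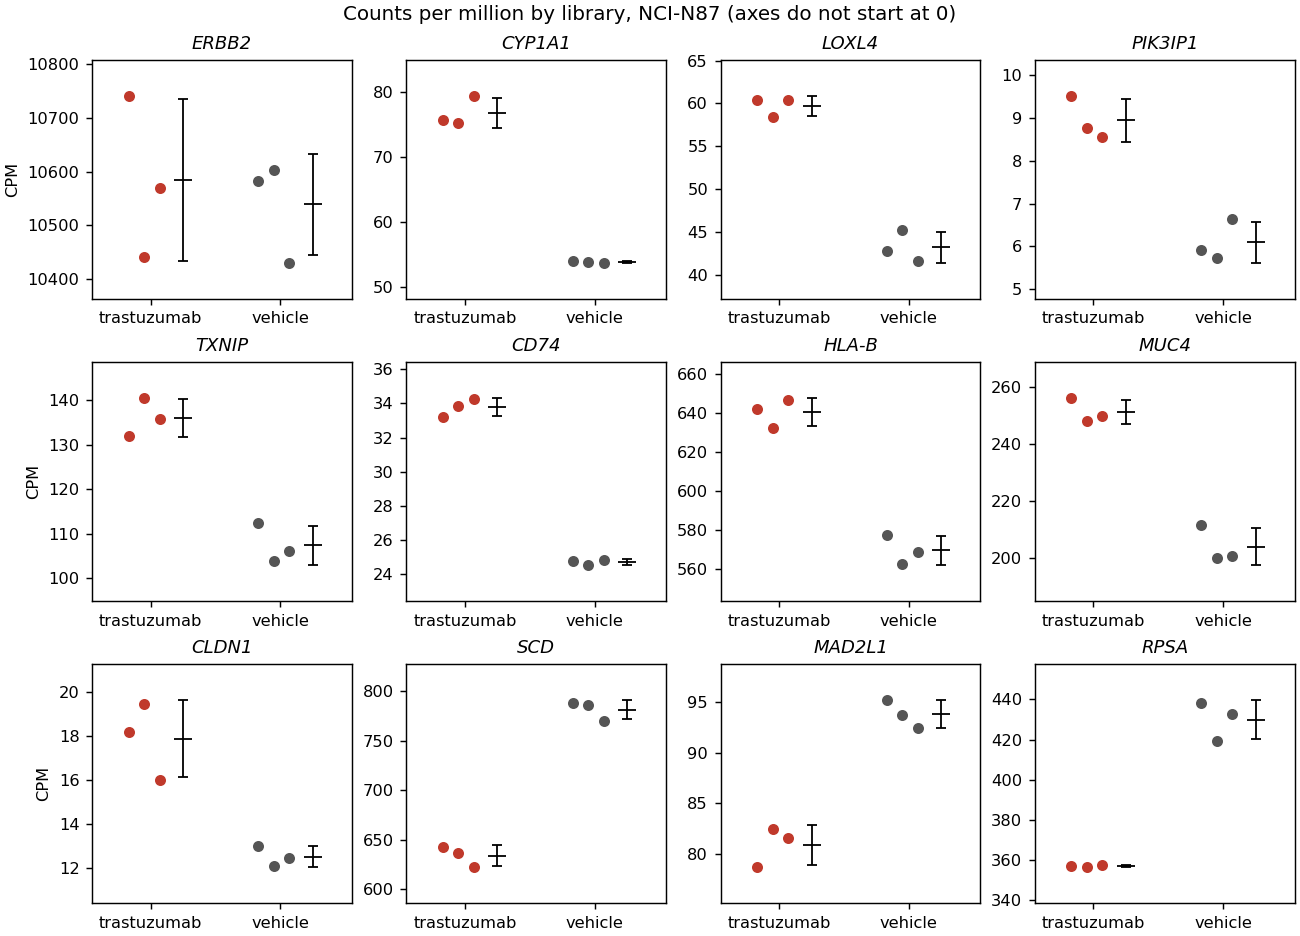
Expression of 12 genes by library. Points are the CPM of the 3 trastuzumab libraries (red, left) and the 3 vehicle libraries (grey, right); the bar beside each group is its mean with the SD (n = 3). Axes differ by gene and do not start at 0. The groups overlap for ERBB2 only; the 8 genes from CYP1A1 to CLDN1 are higher in every trastuzumab library, and SCD, MAD2L1 and RPSA are lower in every trastuzumab library.

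The gene with the smallest adjusted p was CYP1A1, a cytochrome P450 enzyme that is the standard target gene of the aryl hydrocarbon receptor (gene ID 1543, chromosome 15, 74719542 to 74725528 of GRCh38). It was at 75.7, 75.3 and 79.4 CPM with trastuzumab and 54.0, 53.9 and 53.7 CPM with vehicle. It rose by 0.51 ± 0.03 (adjusted p = 1.81e-07, edgeR) and was 1 of the 5 genes past 1.2-fold. Other common targets of that receptor did not move as one. CYP1B1, a related P450 enzyme, was at 14.5, 13.6 and 13.6 CPM with trastuzumab and 14.7, 15.4 and 16.4 CPM with vehicle (-0.16 ± 0.07, adjusted p = 0.165, edgeR). TIPARP, a poly(ADP-ribose) polymerase, was at 53.3, 54.6 and 54.0 CPM with trastuzumab and 48.4, 50.2 and 49.7 CPM with vehicle (0.13 ± 0.03, adjusted p = 0.0218, edgeR). AHRR changed by 0.09 ± 0.40 (adjusted p = 0.924, edgeR), with trastuzumab libraries at 8.72, 1.19 and 7.18 CPM and vehicle libraries at 6.92, 3.15 and 6.02 CPM. NQO1 changed by -0.03 ± 0.02 (adjusted p = 0.449, edgeR). CYP1B1, TIPARP, AHRR and NQO1 were chosen after the value of CYP1A1 was seen.

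LOXL4, a lysyl oxidase that cross-links collagen and elastin, also passed 1.2-fold. It was at 60.4, 58.4 and 60.4 CPM with trastuzumab and 42.8, 45.2 and 41.7 CPM with vehicle, a change of 0.47 ± 0.04. ALPP, placental alkaline phosphatase (gene ID 250, chromosome 2, 232378751 to 232382889), had the largest increase by the rule for named genes, which left out read-through transcripts: 27.0, 26.8 and 24.3 CPM with trastuzumab and 15.5, 19.02 and 16.3 CPM with vehicle (0.62 ± 0.07). ALPG, its near-identical neighbour on chromosome 2, was at 25.9, 24.2 and 25.5 CPM with trastuzumab and 15.6, 19.9 and 16.8 CPM with vehicle (0.53 ± 0.08). The share of these reads that belongs to each of the 2 copies is uncertain. The remaining genes past 1.2-fold were ATP6V1B1, a subunit of the vacuolar proton pump that was close to the limit of detection at 2.20, 1.67 and 1.84 CPM with trastuzumab and 0.628, 0.596 and 0.788 CPM with vehicle, and the read-through transcript BLOC1S5-TXNDC5.

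BLOC1S5-TXNDC5 was at 31.2, 31.8 and 33.2 CPM with trastuzumab and 0.384, 3.31 and 0.117 CPM with vehicle. It shares its sequence with TXNDC5, a protein disulfide isomerase, which was at 231, 234 and 227 CPM with trastuzumab and 277, 263 and 272 CPM with vehicle. Summed, the 2 symbols gave 262, 266 and 260.3 CPM with trastuzumab and 277, 266 and 272 CPM with vehicle. On group means in CPM, the rise in the read-through symbol was thus matched by a somewhat larger fall in TXNDC5. The part that the assignment of shared reads played was not tested.

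Among the other large increases were regulators of growth, channels and junction proteins. PIK3IP1, an inhibitor of PI3K, was at 9.52, 8.76 and 8.57 CPM with trastuzumab and 5.91, 5.73 and 6.64 CPM with vehicle (0.55 ± 0.10, adjusted p = 0.00227, edgeR). CLDN1, a claudin of tight junctions, was at 18.2, 19.5 and 15.99 CPM with trastuzumab and 13.01, 12.1 and 12.4 CPM with vehicle (0.51 ± 0.08). The groups of both genes did not overlap, as the rule for the largest changes required. GABRP, the pi subunit of the GABA-A receptor, rose by 0.58 ± 0.14, although vehicle replicate 1 at 5.89 CPM was nearer to the trastuzumab libraries at 6.78 to 6.92 CPM than to the other vehicle libraries at 3.87 and 3.97 CPM. ATP10B, a lipid flippase, rose by 0.52 ± 0.10, CLIC5, a chloride intracellular channel protein, by 0.54 ± 0.13, and MAP2, a microtubule-associated protein, by 0.50 ± 0.06. FILIP1L, a filamin-interacting protein, was at 23.5, 22.9 and 21.1 CPM with trastuzumab and 15.8, 15.6 and 16.5 CPM with vehicle (0.49 ± 0.07). ANKK1, a kinase with ankyrin repeats, rose by 0.55 ± 0.13. The call of GABRP ended without vehicle replicate 2 or 3 (adjusted p = 0.062 and 0.0698), that of ANKK1 without vehicle replicate 1 (0.0552), and that of CLIC5 without trastuzumab replicate 3 or vehicle replicate 1 or 2 (0.0544 to 0.0684).

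The conjugate did not change these genes alike. PIK3IP1, GABRP, ATP10B and ANKK1 were all lower with T-DXd than with trastuzumab, by -0.63, -0.93, -0.92 and -0.76 on the log2 scale (the largest adjusted p of the 4 was 0.0001, edgeR), and T-DXd against vehicle gave -0.07, -0.35, -0.40 and -0.21. Against vehicle, GABRP and ATP10B passed the test (adjusted p = 0.0434 and 0.00365, edgeR), while PIK3IP1 and ANKK1 did not (0.55 and 0.185). For CLDN1 no difference between the drugs was detectable, with 0.59 for T-DXd over vehicle and 0.08 ± 0.08 for T-DXd over trastuzumab (adjusted p = 0.38, edgeR). CYP1A1 was lower with T-DXd than with trastuzumab by -0.22, and ALPG was higher by 0.21. Both comparisons with vehicle use the same 3 vehicle libraries, and the difference itself was tested between the T-DXd and trastuzumab libraries.

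The 12 largest decreases named by the same rule lay between -0.33 and -0.47. LIPC, hepatic lipase, was at 26.2, 27.0 and 27.1 CPM with trastuzumab and 32.5, 36.1 and 32.7 CPM with vehicle (-0.33 ± 0.07). ZNF593, a zinc finger protein, was at 19.8, 19.4 and 19.3 CPM with trastuzumab and 25.5, 24.6 and 24.7 CPM with vehicle (-0.36 ± 0.05, adjusted p = 0.000411, edgeR). CORO1A, an actin-binding coronin, was at 4.91, 4.94 and 4.84 CPM with trastuzumab and 6.82, 6.17 and 6.39 CPM with vehicle (-0.40 ± 0.10). In all 3 genes every trastuzumab library was below every vehicle library. FREM2, an extracellular matrix protein, changed by -0.44 ± 0.11, KREMEN2, a receptor of the Wnt antagonist Dickkopf, by -0.34 ± 0.08, and CCDC167, a coiled-coil protein, by -0.38 ± 0.07. PSAPL1, a prosaposin-like gene, changed by -0.47 ± 0.13, CCDC144A, a coiled-coil protein, by -0.46 ± 0.13 and RNLS, which encodes renalase, by -0.37 ± 0.10. CORO1A and PSAPL1 were higher with T-DXd than with trastuzumab, by 1.21 and 1.34, and LIPC was lower by -1.13. Leaving out single libraries ended several of these calls: RNLS without any of them but trastuzumab replicate 3 (adjusted p = 0.0573 to 0.121), CCDC144A without any but trastuzumab replicate 2 (0.0563 to 0.132), PSAPL1 without trastuzumab replicate 1 or 2 or vehicle replicate 1 or 3 (0.0528 to 0.136), FREM2 without trastuzumab replicate 1 or vehicle replicate 2 (0.0627 and 0.0745), CORO1A without trastuzumab replicate 3 or vehicle replicate 1 (0.0556 and 0.0702), and KREMEN2 without trastuzumab replicate 3 or vehicle replicate 3 (0.0553 and 0.0526).

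Of the 12 decreases, 3 cannot be assigned to 1 gene. FNTB, the beta subunit of farnesyltransferase, was at 18.3, 21.02 and 21.8 CPM with trastuzumab and 26.3, 25.8 and 25.0 CPM with vehicle. Its read-through CHURC1-FNTB was at 8.40, 5.76 and 4.18 CPM with trastuzumab and 1.19, 0.0769 and 1.32 CPM with vehicle, and the sum of both was 26.7, 26.8 and 26.03 CPM with trastuzumab and 27.5, 25.9 and 26.3 CPM with vehicle, so that the summed groups overlapped. RPSAP19 and RPSAP15 are pseudogenes of RPSA, a protein of the small ribosomal subunit that fell itself. RPSAP19 changed by -0.40 ± 0.06, RPSAP15 by -0.35 ± 0.07 and RPSA by -0.27 ± 0.02, and reads of near-identical copies may be shared among them.

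Larger decreases were found in symbols that the rule left out. HSPE1-MOB4, a read-through transcript, was at 4.49, 5.80 and 7.64 CPM with trastuzumab and 17.96, 14.003 and 11.6 CPM with vehicle (-1.27 ± 0.29, adjusted p = 0.0104, edgeR), a call that ended without vehicle replicate 1 (0.0588). NME1-NME2, the read-through of a pair of nucleoside diphosphate kinase genes, was at 32.7, 28.4 and 21.2 CPM with trastuzumab and 40.5, 49.2 and 54.9 CPM with vehicle (-0.82 ± 0.16), and NME1 and NME2 themselves changed by -0.15 ± 0.03 and -0.17 ± 0.02. RPS10-NUDT3 changed by -0.56 ± 0.11 and the long noncoding RNA LINC02035 by -0.93 ± 0.16, while ARMCX5-GPRASP2 rose by 0.62 ± 0.12 and LINC01004 by 0.49 ± 0.10. Read-through transcripts share sequence with their single genes, so the assignment of reads to them is uncertain.

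The list of FOXO-responsive genes, like the others, was chosen with earlier results of these data known. Of 34 FOXO-responsive genes tested, 11 rose, 32.4% against 3.65% of all genes, with a median of 0.09 against 0.01 over all genes tested. None of them was called lower (15 were higher and 0 lower at an unadjusted p under 0.05, and 10 were higher and 0 lower by DESeq2). The 3 trastuzumab libraries lay at a median of 0.09 to 0.11 above the vehicle mean. TXNIP, which binds thioredoxin and restrains glucose uptake, was at 132, 141 and 136 CPM with trastuzumab and 112, 104 and 106 CPM with vehicle (0.34 ± 0.03, adjusted p = 1.2e-05, edgeR). INSR, the insulin receptor, was at 11.4, 12.5 and 10.3 CPM with trastuzumab and 9.19, 8.19 and 9.49 CPM with vehicle (0.34 ± 0.08). FOXO4, itself a FOXO factor, was at 18.3, 16.3 and 15.9 CPM with trastuzumab and 13.02, 13.3 and 13.9 CPM with vehicle (0.33 ± 0.07). In TXNIP, INSR and FOXO4 the groups did not overlap. CCNG2, a cyclin linked to arrest, rose by 0.30, FBXO32, a ubiquitin ligase subunit, by 0.30, BCL6, a transcriptional repressor, by 0.27, and TNFSF10, the ligand TRAIL, by 0.27. PIK3IP1 and ERBB3, described above, belong to this group as well. The members that rose are thus receptors and adaptors (ERBB3, INSR, PIK3IP1), regulators of the cell cycle and death (CCNG2, BCL6, TNFSF10), 3 genes of metabolism and protein turnover (TXNIP, FBXO32, GABARAPL1) and 2 of the factors (FOXO3, FOXO4). Without vehicle replicate 2 the count was 7. INSR had an adjusted p of 0.0683 without trastuzumab replicate 2 and 0.0738 without vehicle replicate 2, and FOXO4 one of 0.051 without trastuzumab replicate 1.

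Among the 37 gene lists, the one with the largest share of falls was the cytosolic ribosomal proteins. Of these 79 genes, 63 fell, or 79.7% against 6.09% of all genes, with a median of -0.12. At an unadjusted p under 0.05, 72 were lower and 0 higher, and DESeq2 called 72 lower and 0 higher. The members lay within -0.27 to 0.01, and the medians by library were -0.14, -0.10 and -0.13 relative to the vehicle mean with trastuzumab, against 0.03, -0.03 and 0.01 with vehicle. RPSA was at 357, 357 and 357 CPM with trastuzumab and 438, 419 and 433 CPM with vehicle (adjusted p = 1.2e-05, edgeR). RPL8, of the large subunit, was at 1478, 1447 and 1459 CPM with trastuzumab and 1723, 1672 and 1731 CPM with vehicle (-0.23 ± 0.02). RPS10, of the small subunit, was at 465, 467 and 472 CPM with trastuzumab and 566, 554 and 551 CPM with vehicle (-0.25 ± 0.02). In RPSA, RPL8 and RPS10 the groups were far apart relative to the spread within them. FAU, which encodes a ubiquitin-like protein fused to RPS30, changed by -0.27 ± 0.03. Both subunits took part, with 37 of 46 genes of the large and 26 of 33 of the small subunit lower. The count dropped to 40 when vehicle replicate 1 was left out, and it was 62 when trastuzumab replicate 2, the library with the most rRNA, was left out.

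Some genes that build and serve ribosomes fell as well. Of 58 ribosome biogenesis genes 16 fell (27.6% against 6.09% of all genes, median -0.09), among them NHP2, a subunit of H/ACA ribonucleoproteins, at 66.8, 66.2 and 69.0 CPM with trastuzumab and 81.7, 75.8 and 73.5 CPM with vehicle, FBL, the rRNA methyltransferase fibrillarin (-0.16 ± 0.03), and BOP1, which processes the large subunit rRNA (-0.17 ± 0.03). At an unadjusted p under 0.05, 39 were lower and 0 higher, and DESeq2 called 27 lower and 0 higher. Of 22 translation factors 11 fell, where 6.09% of all genes fell (median -0.08). The translation factor list had a median level of 8.68 in average log2 CPM, and of all genes at 7 to 9 in that measure 23.6% fell. EEF1B2, an exchange factor of the elongation factor eEF1A, was at 325, 341 and 336 CPM with trastuzumab and 385, 372 and 382 CPM with vehicle (-0.18 ± 0.03). EIF4A1, the helicase of the cap-binding complex, changed by -0.15 ± 0.03 and EEF1G by -0.14 ± 0.02. The biogenesis count was 9, 9 and 10 without trastuzumab replicate 1, 2 and 3, 8 without vehicle replicate 1 and 7 when libraries were scaled by total counts alone, and NHP2 had an adjusted p of 0.0504 without vehicle replicate 1.

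With T-DXd the ribosomal protein genes were lower still. All 79 were called lower than with vehicle (median -0.42), and 76 of 79 were called lower with T-DXd than with trastuzumab, against 29.4% of all genes. RPL8 was lower with T-DXd than with trastuzumab by -0.16 and RPSA by -0.22. FAU was an exception, with a difference of T-DXd over trastuzumab of 0.05 ± 0.03 (adjusted p = 0.0793, edgeR).

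Of 76 nuclear genes of the respiratory chain, 48 fell, 63.2% against 6.09% of all genes, with a median of -0.12 (59 lower and 0 higher at an unadjusted p under 0.05, and 56 lower and 0 higher by DESeq2). The count was 31 with total counts alone. In complex I, which oxidises NADH, 18 of 38 fell, and in complexes II to V 30 of 38 fell. NDUFA6, an accessory subunit of complex I, was at 54.8, 58.2 and 57.5 CPM with trastuzumab and 68.4, 66.6 and 69.1 CPM with vehicle (-0.26 ± 0.04). CYC1, cytochrome c1 of complex III, was at 196, 194 and 196 CPM with trastuzumab and 236, 223 and 226 CPM with vehicle (-0.23 ± 0.03). NDUFS8, an iron-sulfur subunit of complex I, was at 82.0, 68.3 and 75.4 CPM with trastuzumab and 97.6, 87.1 and 92.3 CPM with vehicle, with wider spread in both groups and no overlap. The 13 genes encoded in mitochondrial DNA had a median of -0.05, and ND6, a complex I subunit on the opposite strand from the other mRNAs, was the 1 called gene, at 246, 247 and 259 CPM with trastuzumab and 245, 222 and 219.99 CPM with vehicle (adjusted p = 0.0344, edgeR). That call ended without trastuzumab replicate 3 or vehicle replicate 2 or 3 (0.128 to 0.159).

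**Figure D3:**
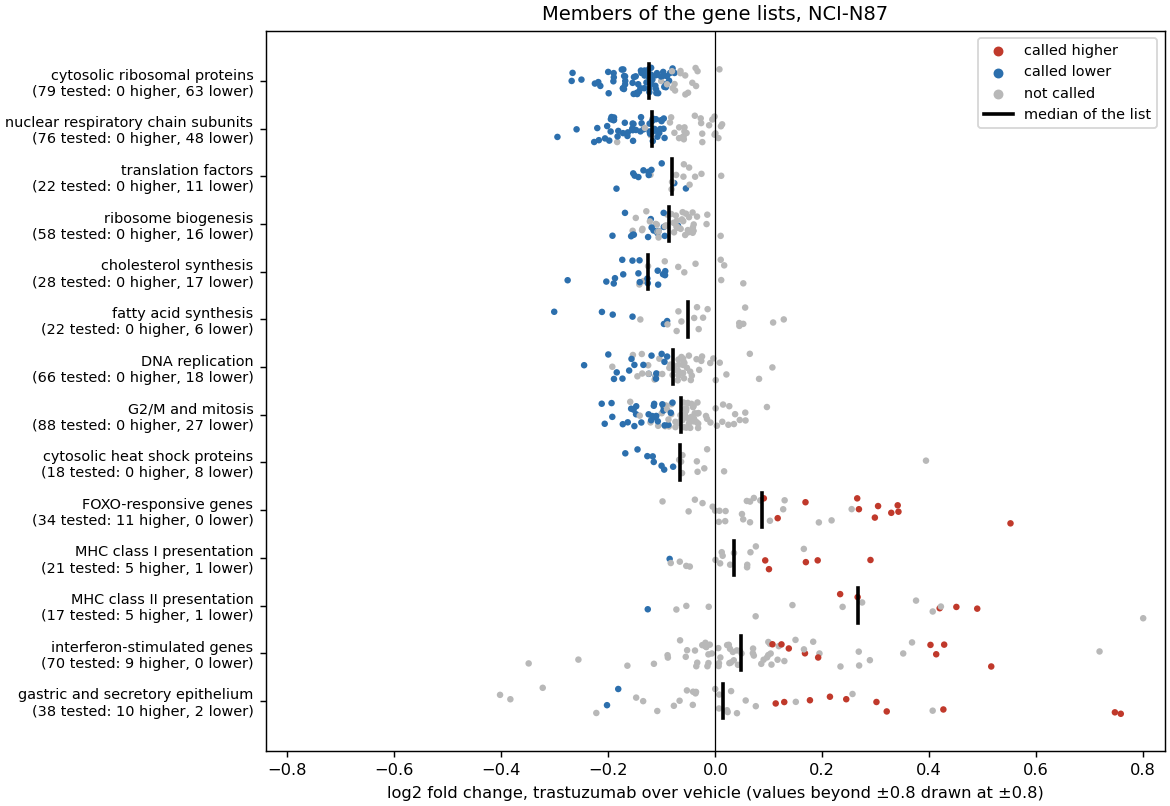
Log2 fold change of trastuzumab over vehicle for the tested members of 14 gene lists. Each point is a gene, red where called higher, blue where called lower and grey where not called, and the black bar is the median of the list; counts stand beside each name (values beyond ±0.8 are drawn at ±0.8). Members of the ribosomal protein list lie between -0.27 and 0.01, and the medians of the FOXO-responsive and MHC class II lists lie to the right of 0.

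The falls in these groups went along with transcript length and expression level. Protein-coding genes at 1 or more in average log2 CPM were split into 5 equal bins by the length of their main transcript (GENCODE), which 98.7% of them had. In the shortest bin (295 to 1837 bases) 20.8% fell and 2.6% rose, while in the longest (5770 to 34626 bases) 2.6% fell and 6.3% rose. The median transcript was 785 bases long in the ribosomal protein list and 784 bases in the respiratory chain list. Outside both lists, 45.4% of the 240 genes in the shortest bin at 7 or more in average log2 CPM fell, with a median of -0.08, compared with 49 of 59 ribosomal protein genes (83.1%, median -0.13) and 10 of 16 respiratory chain genes (62.5%, median -0.10) of the same length and level. By level alone, 39.3% of genes at 9 or more in average log2 CPM fell and 5.6% rose, whereas under 1 the shares were 0.1% and 1.2%. At 5 to 7 and at 7 to 9 in average log2 CPM, 10.9% and 23.6% of genes fell. The part of length and level in the results for ribosomal and respiratory genes, and for the other lists, was not tested.

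**Figure D4:**
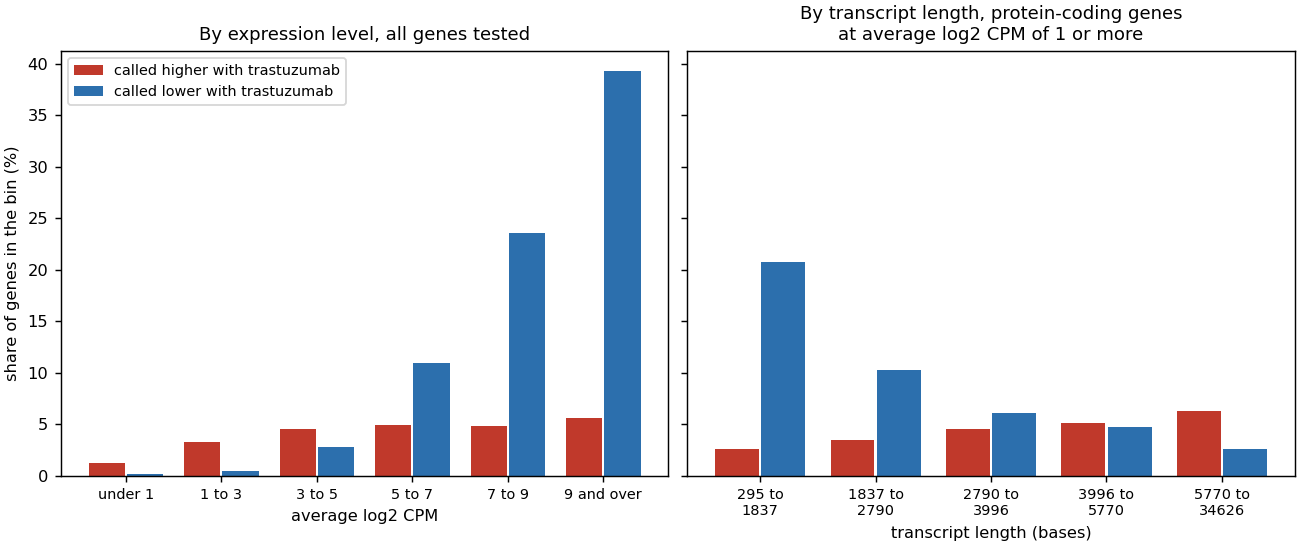
Share of genes called higher (red) and lower (blue) with trastuzumab, in percent of the genes in each bin. The left panel bins all genes tested by average log2 CPM, and the right panel splits protein-coding genes into 5 equal bins by transcript length in bases. Falls reach 39.3% in the highest level bin and 20.8% in the bin of shortest transcripts.

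Many genes of cholesterol synthesis fell. Of 28 genes of the pathway and its control, 17 fell, 60.7% against 6.09% of all genes, with a median of -0.13 and medians by library of -0.12, -0.12 and -0.10 with trastuzumab against -0.01 to 0.01 with vehicle. At an unadjusted p under 0.05, 22 were lower and 0 higher, and DESeq2 called 17 lower and 0 higher. The falls ran along the whole pathway: 4 of 6 genes from acetyl-CoA to mevalonate, 4 of 6 of the isoprenoid and squalene steps, 6 of 10 from lanosterol to cholesterol and 3 of 6 of uptake and control. IDI1, which isomerises isopentenyl diphosphate, was at 129, 134 and 134 CPM with trastuzumab and 152, 153 and 153 CPM with vehicle (-0.20 ± 0.03, adjusted p = 0.000129, edgeR). ACAT2, which starts the pathway, and NSDHL, a late sterol enzyme, each changed by -0.19. In IDI1, ACAT2 and NSDHL the groups did not overlap. The median transcript of this list was 2902 bases long, and the count was 10 with total counts alone.

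Fatty acid synthesis genes fell in part, 6 of 22 (27.3% against 6.09% of all genes), with a median of -0.05. SCD, the desaturase that makes monounsaturated fatty acids (gene ID 6319, chromosome 10, 100347233 to 100364826 of GRCh38), was at 643, 637 and 623 CPM with trastuzumab and 788, 786 and 770.2 CPM with vehicle. It changed by -0.30 ± 0.03 (adjusted p = 1.99e-05, edgeR), and the groups were well apart. SREBF1, the transcription factor that drives lipid synthesis, was at 121, 118 and 125 CPM with trastuzumab and 139.9, 143 and 138 CPM with vehicle (-0.21 ± 0.02). FASN, fatty acid synthase, was at 747, 677 and 701 CPM with trastuzumab and 801, 827 and 798 CPM with vehicle (-0.19 ± 0.04). ACSL3, an acyl-CoA synthetase, changed by -0.15 ± 0.03. With T-DXd, SCD and SREBF1 were lower than with trastuzumab by -0.16 and -0.35, but IDI1 was higher by 0.81, ACSL3 by 0.55 and NSDHL by 0.40 (each adjusted p 0.000182 or less, edgeR).

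Of 66 genes of DNA replication tested, 18 fell by small amounts, 27.3% against 6.09% of all genes, with a median of -0.08 (38 lower and 2 higher at an unadjusted p under 0.05). RPA3, a subunit of the single-strand binding protein, was at 31.6, 34.7 and 32.0 CPM with trastuzumab and 37.6, 37.2 and 41.6 CPM with vehicle (-0.25 ± 0.05). RFC5, of the clamp loader, changed by -0.20 ± 0.03, and POLE3, a subunit of polymerase epsilon, was at 110.2, 112 and 113 CPM with trastuzumab and 129, 124 and 127 CPM with vehicle (-0.18 ± 0.02). RECQL4, a helicase of origin firing, changed by -0.19 ± 0.04. CDC6, which loads the helicase at origins, was at 194, 199.6 and 193 CPM with trastuzumab and 215, 204 and 214 CPM with vehicle (-0.11 ± 0.03). PCNA, the clamp itself, changed by -0.12, MCM7 of the helicase by -0.12 and RRM2, of the enzyme that supplies deoxynucleotides, by -0.09. The call of CDC6 ended without trastuzumab replicate 3 or vehicle replicate 1 or 3 (adjusted p = 0.0578 to 0.0747).

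Of 88 genes of G2 and mitosis tested, 27 fell, 30.7% against 6.09% of all genes, with a median of -0.06 (42 lower and 1 higher at an unadjusted p under 0.05). The share was largest, 15 of 27, among genes of mitotic exit, chromosome condensation and cytokinesis, and was 5 of 19 among kinases and cyclins and 7 of 42 among kinetochore and spindle genes; whether these shares differ was not tested. MAD2L1, a spindle checkpoint protein, was at 78.8, 82.5 and 81.6 CPM with trastuzumab and 95.2, 93.7 and 92.4 CPM with vehicle. BIRC5, survivin of the chromosomal passenger complex, was at 98.3, 93.7 and 96.2 CPM with trastuzumab and 110.05, 114 and 108 CPM with vehicle. CDC20, which activates the anaphase-promoting complex, was at 156, 151 and 158 CPM with trastuzumab and 182, 175 and 174 CPM with vehicle (-0.19 ± 0.03, adjusted p = 0.00022, edgeR). UBE2S, a ubiquitin-conjugating enzyme of that complex, changed by -0.19 ± 0.03. No trastuzumab value of these 4 genes reached a vehicle value. PLK1, the mitotic kinase, changed by -0.15 and CCNB1, cyclin B1, by -0.15. The count was 17 without trastuzumab replicate 3, 16 without vehicle replicate 1 and 12 with total counts alone, and the replication count was 10 with total counts alone. Over all genes, 746, 663 and 529 fell in these 3 settings, against 1060 in the main fit.

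Of 28 cyclins, E2F factors and CDK inhibitors, 2 rose (7.1% against 3.65% of all genes) and 1 fell (3.6% against 6.09%). CDKN2B, an inhibitor of CDK4 and CDK6, was at 14.1, 14.8 and 14.2 CPM with trastuzumab and 11.4, 12.1 and 12.2 CPM with vehicle (0.27 ± 0.06, adjusted p = 0.00711, edgeR). E2F4, a repressor E2F, changed by -0.11 ± 0.03, a call that ended without trastuzumab replicate 1 or 3 or vehicle replicate 1 (0.0628 to 0.0929), and the number that rose was 1 when any library other than trastuzumab replicate 3 was left out.

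Promoters of some mitotic genes that fell are shown, each picked because it holds a match to a short sequence. The cell cycle genes homology region (CHR), to which the DREAM complex binds, was searched as TTTGAA or TTCGAA on both strands, from 250 bases before to 50 after each start in the RefSeq promoter table (GRCh38.p14), in which 12499 of the genes tested were matched. It was present in 52 of 75 matched promoters of the G2 and mitosis list (69.3%) and in 15 of the 22 matched promoters of members that fell (68.2%), against 11.5% of all genes tested and 16.6% of all promoters in the table. Among all matched genes that fell, in any list or none, it was present in 11.3%. The share was thus high in the list as a whole and similar among its members that fell, and whether the match relates to the fall was not tested. The stretches below, all of genes that fell, are written 5′ to 3′ on the strand of the gene, with the CHR match in capitals.
CDC20: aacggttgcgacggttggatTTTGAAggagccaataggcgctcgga
PLK1: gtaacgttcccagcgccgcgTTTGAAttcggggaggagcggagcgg
CKS1B: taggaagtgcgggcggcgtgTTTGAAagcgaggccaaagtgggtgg
CDCA5: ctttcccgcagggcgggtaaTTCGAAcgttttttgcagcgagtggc
ZWINT: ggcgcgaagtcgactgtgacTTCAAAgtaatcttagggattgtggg
They lie at chr1:43358896-43358941 (plus strand), chr16:23678840-23678885 (plus), chr1:154974631-154974676 (plus), chr11:65084041-65084086 (minus) and chr10:56361265-56361310 (minus). TTCAAA in ZWINT, a kinetochore protein, is TTTGAA read on the other strand. CKS1B, a subunit of cyclin-dependent kinases, was at a change of -0.16, CDCA5, which protects sister chromatid cohesion, at -0.12 and ZWINT at -0.15. The CCAAT box, searched as CCAAT on both strands, was in 68.0% of the promoters of the list against 36.5% of genes tested, and the CDC20 stretch holds one, read as ccaat, after the CHR match. The E2F site, searched as TTTGGCGC or TTTCGCGC on both strands, was in 13 of 57 matched promoters of the replication list (22.8%) against 2.0% of genes tested, and in 3 of the 15 of members that fell. A match is a description of the letters in this window.

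The antibody and the conjugate parted in this group. Of the 88 genes of G2 and mitosis, 79 were called higher with T-DXd than with trastuzumab and 4 lower, against 28.3% and 29.4% of all genes, and the median of T-DXd over vehicle was 0.33. MAD2L1 was higher with T-DXd than with trastuzumab by 0.66, UBE2S by 0.58 and BIRC5 by 0.36. CDC20 was an exception, with a difference of T-DXd over trastuzumab of -0.02 ± 0.03 (adjusted p = 0.477, edgeR) and a change of T-DXd over vehicle of -0.21. Of the 66 replication genes, T-DXd gave 40 higher and 12 lower values than trastuzumab at the same threshold, and CDC6 was higher by 0.75.

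Of 20 glycolysis genes 10 fell and 1 rose, where 6.09% of all genes fell and 3.65% rose. GAPDH was at 2448, 2479 and 2481 CPM with trastuzumab and 2879.6, 2777 and 2806 CPM with vehicle (-0.19 ± 0.01, adjusted p = 3.76e-06, edgeR). TPI1, triosephosphate isomerase, was at 523, 523 and 527 CPM with trastuzumab and 609.6, 588 and 589 CPM with vehicle (-0.18 ± 0.02), LDHA, lactate dehydrogenase, changed by -0.17 and PKM, pyruvate kinase, by -0.15. ENO2, neuronal enolase, was the glycolysis gene that rose (0.15). Of 13 hypoxia-responsive genes 3 rose (23.1% against 3.65% of all genes) and 1 fell (7.7% against 6.09%). VEGFA, the vascular growth factor, was at 146, 138 and 148 CPM with trastuzumab and 126, 127 and 131 CPM with vehicle (0.17 ± 0.03), and NDRG1, a stress-responsive gene, rose by 0.21 ± 0.04. The glycolysis and hypoxia lists together gave 7 falls with total counts alone, against 11, and 2 rises without trastuzumab replicate 1 or 2 or vehicle replicate 2 or 3, against 4.

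Some genes of protein folding fell. The heat shock list had a median level of 8.5 in average log2 CPM, and of all genes at 7 to 9 in that measure 23.6% fell. Of 18 heat shock genes 8 fell (44.4% against 6.09% of all genes, median -0.07, and 5 of 18 with total counts alone), as with HSPD1, the mitochondrial chaperonin, at 948, 973 and 943 CPM with trastuzumab and 1080.3, 1064 and 1075 CPM with vehicle (-0.17 ± 0.02), and HSPA8, the constitutive HSP70, at 2236, 2274 and 2235 CPM with trastuzumab and 2495, 2416 and 2456 CPM with vehicle (-0.13 ± 0.02). Of 22 genes of the ER chaperones and the unfolded protein response 6 fell (27.3%), such as P4HB, a disulfide isomerase, at 830.5, 828 and 839 CPM with trastuzumab and 885, 889 and 883 CPM with vehicle (-0.09 ± 0.02). With edgeR, 13 of the 22 were lower and 0 higher at an unadjusted p under 0.05 and DESeq2 called 9 lower, but total counts alone gave 0 calls, and 2 or 3 were called without trastuzumab replicate 1 (3) or 3 (2) or vehicle replicate 1 or 3 (2 each). Among 37 genes of the ATF4 response 7 fell (18.9% against 6.09% of all genes) and 3 rose (8.1% against 3.65%). The genes of amino acid synthesis fell in 4 of 9 cases, with SHMT2, of serine and glycine metabolism, at -0.17 ± 0.03 and PSAT1, of serine synthesis, at -0.16 ± 0.03. NUPR1, a stress-induced transcriptional regulator, rose instead, at 16.9, 17.2 and 16.6 CPM with trastuzumab and 12.4, 12.9 and 11.8 CPM with vehicle (0.45 ± 0.05, adjusted p = 0.000117, edgeR), and was higher again by 1.14 with T-DXd than with trastuzumab. ATF3, a stress-induced factor, was at 15.03, 15.02 and 13.4 CPM with trastuzumab and 12.7, 11.02 and 12.7 CPM with vehicle, a call that ended without any 1 library but trastuzumab replicate 3 (0.0547 to 0.167). The number of ATF4 response genes that fell was 4 without trastuzumab replicate 2 or vehicle replicate 3 and 2 with total counts alone, and the number that rose was 1 without trastuzumab replicate 2 or vehicle replicate 2 or 3.

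The study concerned interferon and immune genes under T-DXd, for which trastuzumab served as a comparator. Of 70 interferon-stimulated genes 9 rose, 12.9% against 3.65% of all genes, with a median of 0.05 (23 higher and 2 lower at an unadjusted p under 0.05; DESeq2 called 13 higher and 1 lower). GBP2, an interferon-induced GTPase, was at 21.6, 21.5 and 20.04 CPM with trastuzumab and 16.04, 15.8 and 15.003 CPM with vehicle (0.43 ± 0.06, adjusted p = 0.000188, edgeR). XAF1, a pro-apoptotic interferon target, was at 3.47, 3.23 and 3.18 CPM with trastuzumab and 2.00, 2.56 and 2.35 CPM with vehicle (0.52 ± 0.13), and IFI44L and VAMP5 rose by 0.41 ± 0.11 and 0.40 ± 0.09. GBP2, XAF1, IFI44L and VAMP5 showed no overlap between groups. Of the 43 antiviral effectors in the list 5 rose (11.6%) and 0 fell. IFIT1 and ISG15, which the study measured as interferon-stimulated genes, did not rise. IFIT1 was at 14.8, 16.6 and 16.1 CPM with trastuzumab and 14.9, 16.7 and 16.6 CPM with vehicle. ISG15, a ubiquitin-like protein, was at 31.7, 30.5 and 32.7 CPM with trastuzumab and 35.1, 33.3 and 34.5 CPM with vehicle (-0.11 ± 0.04, adjusted p = 0.0802, edgeR). ISG15 was thus lower in every trastuzumab library, as were 14.6% of all genes, without passing the test, and it passed with DESeq2 (adjusted p = 0.0496). The number of interferon-stimulated genes that rose was 5 without vehicle replicate 3. XAF1 lost its call without trastuzumab replicate 1 or vehicle replicate 1 or 3 (0.0525 to 0.0876), and IFI44L without trastuzumab replicate 1 or 2 or vehicle replicate 1 or 3 (0.0629 to 0.0991).

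Sensors of cytosolic nucleic acids gave 1 call in 15, which fell (6.7% against 6.09% of all genes). This was DDX41, a helicase implicated in DNA sensing, at -0.11 ± 0.03. Its call ended without any 1 library but vehicle replicate 2 (adjusted p = 0.0762 to 0.211). CGAS, the sensor of cytosolic DNA, was at 27.1, 26.7 and 27.2 CPM with trastuzumab and 27.4, 30.6 and 30.0 CPM with vehicle (-0.12 ± 0.05, adjusted p = 0.164, edgeR). STING1, its adaptor, was at 35.0, 36.5 and 35.998 CPM with trastuzumab and 34.6, 34.5 and 34.0 CPM with vehicle (0.06 ± 0.04, adjusted p = 0.411, edgeR), and IRF1, an interferon-regulatory factor, was at 36.9, 36.6 and 35.4 CPM with trastuzumab and 35.6, 34.1 and 33.9 CPM with vehicle. The groups overlapped for IRF1, and CGAS was lower and STING1 higher in every trastuzumab library without passing the test. Of all genes, 14.6% were lower and 13.6% higher in every trastuzumab library. Also without a call were DDX58, the RNA sensor RIG-I (0.05 ± 0.09), CCL5, a chemokine (0.01 ± 0.10), ENPP1, which degrades cGAMP (-0.30 ± 0.14), and CD86, a costimulatory ligand (0.14 ± 0.15). The difference between the drugs was called in ISG15 (T-DXd over trastuzumab 1.08), IFIT1 (0.53), DDX58 (0.29), IRF1 (0.29), CGAS (0.19), STING1 (0.16) and CCL5 (-0.38), and 52 of the 70 interferon-stimulated genes were called higher with T-DXd than with trastuzumab against 28.3% of all genes.

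Antigen presentation genes rose in part. Among MHC class I heavy chains and their light chain, 5 of 7 rose (71.4% against 3.65% of all genes), with HLA-B at 642, 632 and 647 CPM with trastuzumab and 577, 562 and 569 CPM with vehicle (0.17 ± 0.03, adjusted p = 0.000624, edgeR). HLA-F was at 54.9, 57.0 and 55.1 CPM with trastuzumab and 48.3, 49.6 and 48.3 CPM with vehicle (0.19 ± 0.04). MR1, which presents vitamin metabolites, rose by 0.29 ± 0.07. Of 14 peptide-loading genes only CALR, calreticulin, was called, and it fell (-0.09 ± 0.02), which is 7.1% of these genes against 6.09% of all genes. MHC class II genes were nearer the limit of detection apart from CD74, the invariant chain (gene ID 972, chromosome 5, 150401639 to 150412910 of GRCh38), at 33.2, 33.8 and 34.3 CPM with trastuzumab and 24.8, 24.5 and 24.8 CPM with vehicle (0.45 ± 0.04, adjusted p = 2.01e-05, edgeR). HLA-DRA was at 8.38, 8.09 and 8.19 CPM with trastuzumab and 7.04, 5.12 and 5.38 CPM with vehicle (0.49 ± 0.13), and HLA-DQB1 rose by 0.42 ± 0.10. Of 17 class II genes 5 rose (29.4% against 3.65% of all genes) and 1 fell (5.9% against 6.09%), with a median of 0.27. CD74 differed between the drugs, being lower with T-DXd than with trastuzumab by -0.73 (adjusted p = 5.2e-10, edgeR) and T-DXd over vehicle being -0.28, while HLA-B and HLA-F were higher with T-DXd than with trastuzumab by 0.57 and 0.31. Leaving out 1 library ended the calls of MR1 (trastuzumab replicate 1 or 2, vehicle replicate 2 or 3, adjusted p 0.062 to 0.0686), CALR (trastuzumab replicate 3, any vehicle replicate, 0.054 to 0.114), HLA-DRA (trastuzumab replicate 1 or 3, vehicle replicate 2 or 3, 0.0616 to 0.107) and HLA-DQB1 (trastuzumab or vehicle replicate 3, 0.0587 and 0.0796). HLA genes are alike in sequence, and the assignment of reads among them is uncertain. The number of class I genes that rose was 3, 2 and 3 without trastuzumab replicate 3, vehicle replicate 2 and vehicle replicate 3, and that of class II genes was 3 without trastuzumab replicate 2 or vehicle replicate 2 and 2 without trastuzumab replicate 3 or vehicle replicate 3.

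Of 28 ligands of immune checkpoints 5 rose (17.9% against 3.65% of all genes) and 1 fell (3.6% against 6.09%). VTCN1, the inhibitory ligand B7-H4, was at 12.1, 11.6 and 11.5 CPM with trastuzumab and 9.33, 9.31 and 7.98 CPM with vehicle (0.41 ± 0.09). VSIR, the ligand VISTA, was at 54.9, 50.7 and 54.1 CPM with trastuzumab and 48.0, 47.9 and 44.3 CPM with vehicle (0.19 ± 0.04), and CEACAM1 rose by 0.14 ± 0.03. CD274, which encodes PD-L1, was at 0.822, 0.772 and 0.715 CPM with trastuzumab and 0.401, 0.596 and 0.587 CPM with vehicle (0.54 ± 0.24, adjusted p = 0.173, edgeR). Every trastuzumab library was above every vehicle library for CD274, as for 13.6% of all genes, but at under 1 CPM the change did not pass the test. Against trastuzumab, T-DXd gave 0.34 ± 0.22 for CD274 (adjusted p = 0.208, edgeR), 0.83 for VSIR, 0.72 for CEACAM1 and -0.44 for VTCN1. Of 34 genes of NF-kB and chemokines 2 rose, TRAF1, an adaptor of TNF receptors, at 1.46, 1.92 and 1.23 CPM with trastuzumab and 0.941, 1.06 and 0.872 CPM with vehicle, and CXCL5, a neutrophil chemokine, at 15.7, 16.4 and 16.8 CPM with trastuzumab and 13.6, 12.5 and 13.6 CPM with vehicle (0.30 ± 0.07). CXCL5 was lower with T-DXd than with trastuzumab by -1.53. The 2 rises among NF-kB and chemokine genes were 5.9% of that list, against 3.65% of all genes. The NF-kB and chemokine count was 0 without vehicle replicate 2 and 1 without any other library. The checkpoint count of rises was 2 without trastuzumab replicate 1 and 3 without trastuzumab replicate 2 or any 1 vehicle library. The calls that ended included VTCN1 without vehicle replicate 3 (0.0628), CEACAM1 without trastuzumab replicate 1 or vehicle replicate 3 (0.0582 and 0.0788) and CXCL5 without trastuzumab replicate 3 or vehicle replicate 2 (0.0685 and 0.0725).

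Genes of secretory and differentiated epithelium rose in part. Of 38 genes 10 rose (26.3% against 3.65% of all genes) and 2 fell (5.3% against 6.09%), with a median of 0.01. Of the 8 mucins and trefoil factors tested, 5 rose. MUC4, a membrane mucin that binds HER2 (gene ID 4585, chromosome 3, 195746771 to 195811929 of GRCh38), was at 256, 248 and 249.96 CPM with trastuzumab and 211, 199.9 and 201 CPM with vehicle (0.30 ± 0.03, adjusted p = 2.01e-05, edgeR). MUC1, another membrane mucin, was at 98.4, 101 and 104 CPM with trastuzumab and 89.6, 91.6 and 95.9 CPM with vehicle (0.13 ± 0.03), MUC20 rose by 0.24, and MUC13 by 0.11. CEACAM5, carcinoembryonic antigen, was at 71.1, 67.9 and 68.9 CPM with trastuzumab and 55.2, 58.1 and 53.3 CPM with vehicle (0.32 ± 0.03). PSCA, prostate stem cell antigen of the gastric surface, was at 21.1, 19.7 and 22.3 CPM with trastuzumab and 16.04, 15.9 and 15.2 CPM with vehicle (0.43 ± 0.06), and BPIFB1, a secreted antimicrobial protein, rose by 0.75 ± 0.16 at 1.41 to 3.13 CPM over the 6 libraries. AGR2, a disulfide isomerase of mucus-secreting cells, and ANXA10, a gastric annexin, fell by 0.18 and 0.20 on the log2 scale. T-DXd over trastuzumab was 0.76 for MUC4, -0.23 for CEACAM5 and -0.18 for MUC1.

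The keratins moved apart. KRT8, KRT18 and KRT19, the simple epithelial keratins that carry most of the epithelial marker sum, fell by 0.13, 0.09 and 0.08 on the log2 scale. KRT20, a keratin of mature gastric and intestinal cells, was at 10.98, 9.99 and 12.2 CPM with trastuzumab and 8.79, 8.91 and 9.54 CPM with vehicle (0.29 ± 0.09), and KRT80, KRT23 and KRT15 rose by 0.20, 0.15 and 0.14. Among genes of stratified epithelium, IVL, involucrin of the cornified envelope, was at 12.4, 12.2 and 12.6 CPM with trastuzumab and 9.96, 9.60 and 9.92 CPM with vehicle (0.34 ± 0.08), and KLK7, a skin protease, rose by 0.37 ± 0.08. UPK1B, a uroplakin, rose by 0.56 ± 0.14. In all, 7 of 44 rose (15.9% against 3.65% of all genes) and 5 fell (11.4% against 6.09%). The number that fell was 3 without trastuzumab replicate 2 or 3, without vehicle replicate 1 or 3, and with upper-quartile factors or total counts alone. UPK1B lost its call without trastuzumab replicate 2 or vehicle replicate 2 or 3 (0.0504 to 0.092), and KRT20 without any 1 library but trastuzumab replicate 2 (0.0707 to 0.214).

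At the junctions, CLDN1 rose and CLDN2 fell. CLDN2, a pore-forming claudin of leaky epithelia, was at 80.8, 80.9 and 78.7 CPM with trastuzumab and 95.4, 95.6 and 96.5 CPM with vehicle (-0.26 ± 0.03, adjusted p = 0.000145, edgeR), with wide separation of the groups. CLDN4, a sealing claudin, rose by 0.10 ± 0.03, but this call ended whichever of the 6 libraries was left out (0.0615 to 0.184). Of 41 genes of matrix, integrins and proteases 6 rose (14.6% against 3.65% of all genes) and 1 fell (2.4% against 6.09%). The laminin subunits LAMB3, LAMB2 and LAMA3 rose by 0.17, 0.18 and 0.15, and LAMB3 was at 344, 324 and 331 CPM with trastuzumab and 300.3, 297 and 294 CPM with vehicle. LAMB2 had an adjusted p of 0.0511 without trastuzumab replicate 1. TIMP2, an inhibitor of matrix metalloproteinases, was at 201, 212 and 207 CPM with trastuzumab and 183, 183 and 176 CPM with vehicle (0.19 ± 0.03). FN1, fibronectin, was at 21.9, 21.3 and 21.8 CPM with trastuzumab and 24.8, 26.4 and 24.5 CPM with vehicle (-0.22 ± 0.04), and was higher with T-DXd than with trastuzumab by 1.58, as was TIMP2 by 1.32.

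Of 31 genes of actin and of YAP and SRF targets 5 rose (16.1% against 3.65% of all genes) and 2 fell (6.5% against 6.09%). CCN2, a matricellular protein and standard YAP target, was at 29.3, 28.9 and 29.1 CPM with trastuzumab and 23.9, 22.2 and 23.6 CPM with vehicle (0.32 ± 0.06, adjusted p = 0.00202, edgeR). MYL9, a myosin light chain, was at 40.2, 42.3 and 41.3 CPM with trastuzumab and 35.4, 32.9 and 32.2 CPM with vehicle (0.30 ± 0.04). The groups did not overlap for either gene. CAV1, caveolin, was called at 1.38, 1.81 and 1.98 CPM with trastuzumab and 0.959, 0.789 and 0.956 CPM with vehicle. The count of rises was 3 without trastuzumab replicate 1 or vehicle replicate 2, and 8 with DESeq2, upper-quartile factors or total counts alone. No gene of this list fell with upper-quartile factors, with total counts alone, or when any library other than vehicle replicate 2 was left out. Immediate-early genes gave 7 rises and 2 falls of 30: BTG2, an antiproliferative gene, was at 33.5, 32.3 and 31.3 CPM with trastuzumab and 28.1, 26.4 and 27.8 CPM with vehicle (0.24 ± 0.04), JUN rose by 0.18 and KLF6 by 0.19, while ID1, an inhibitor of differentiation factors, was at 64.3, 62.5 and 69.2 CPM with trastuzumab and 74.6, 79.2 and 73.3 CPM with vehicle (-0.21 ± 0.04) and FOS changed by -0.19. The 7 immediate-early rises were 23.3% of that list against 3.65% of all genes, and the 2 falls were 6.7% against 6.09%. Without vehicle replicate 1, 4 immediate-early genes rose, and 1 fell without trastuzumab replicate 1 or 2 or vehicle replicate 3 and with total counts alone. CCN2 and BTG2 were lower with T-DXd than with trastuzumab, by -0.49 and -0.36.

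Genes of p53 and of cell death gave calls in both directions. Of 40 p53 targets 5 rose (12.5% against 3.65% of all genes) and 3 fell (7.5% against 6.09%). TP53INP1, a stress-induced protein of autophagy and cell death, was at 23.9, 27.0 and 27.2 CPM with trastuzumab and 17.9, 19.3 and 19.998 CPM with vehicle (0.45 ± 0.06, adjusted p = 0.000212, edgeR). FDXR, ferredoxin reductase, changed by -0.21 ± 0.04. Of 18 BCL2 family genes, BMF, a BH3-only protein, was at 12.2, 10.9 and 12.9 CPM with trastuzumab and 9.50, 8.56 and 8.10 CPM with vehicle (0.47 ± 0.09, adjusted p = 0.00295, edgeR). BAD, another BH3-only protein, was at 41.0, 35.9 and 39.8 CPM with trastuzumab and 45.4, 44.2 and 44.2 CPM with vehicle (-0.20 ± 0.04). So 1 pro-apoptotic member rose and 1 fell, and the 4 pro-survival members tested had no call. Each call was 5.6% of the 18 genes, against 3.65% higher and 6.09% lower of all genes. TP53INP1 and BMF did not differ detectably between the drugs (T-DXd over trastuzumab 0.01 ± 0.06, adjusted p = 0.902, and 0.06 ± 0.08, adjusted p = 0.591, edgeR), while BAD was higher with T-DXd by 0.40. The p53 count of rises was 3 without trastuzumab replicate 2 or 3 or vehicle replicate 2 or 3, and that of falls was 1 when any library other than vehicle replicate 2 was left out and with upper-quartile factors or total counts alone.

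Of 68 lysosomal genes 8 rose (11.8% against 3.65% of all genes) and 3 fell (4.4% against 6.09%). TPP1, tripeptidyl peptidase, was at 80.6, 79.9 and 85.6 CPM with trastuzumab and 76.6, 72.4 and 70.9 CPM with vehicle (0.16 ± 0.04, adjusted p 0.0552 and 0.0553 without trastuzumab replicate 3 and vehicle replicate 3). The count of lysosomal rises was 3 without trastuzumab replicate 2 or 3 or vehicle replicate 2, 4 without vehicle replicate 1 and 2 without vehicle replicate 3. Of 47 histone genes tested, of 52 listed, 3 replication-dependent genes rose and H2AZ1, a variant of H2A, fell. The histone shares were 6.4% higher against 3.65% of all genes and 2.1% lower against 6.09%. The number of histone genes that rose was 1 without trastuzumab replicate 1 or vehicle replicate 1 or 3. H3C6 was at 5.43, 4.88 and 6.03 CPM with trastuzumab and 3.57, 3.42 and 3.79 CPM with vehicle (0.60 ± 0.11), and H2AZ1 was at 336, 344 and 346 CPM with trastuzumab and 391, 370.2 and 391 CPM with vehicle (-0.17 ± 0.03). Replication-dependent histone mRNAs lack a poly(A) tail, their copies are near-identical, and by library the median of the list was 0.16 in trastuzumab replicate 2 against -0.02 and 0.02 in the other trastuzumab libraries and -0.01 to 0.02 with vehicle. The part of residual RNA without poly(A) in that difference was not tested. Of 6 genes of the metallothionein and zinc list none was called (0 higher and 2 lower at an unadjusted p under 0.05; DESeq2 called 0), with SLC30A1, a zinc exporter, at 83.1, 83.5 and 85.9 CPM with trastuzumab and 83.7, 88.2 and 88.9 CPM with vehicle.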

How the data were processed

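RNA-seq was made from poly(A)-selected RNA (TruSeq Stranded mRNA kit) of 9 NCI-N87 libraries, 3 each with T-DXd, trastuzumab and vehicle. Per the submitters' processing notes and the study's methods, reads were trimmed (Trimmomatic 0.38), HISAT2 2.1.0 placed the reads on GRCh38, and StringTie 2.1.3b gave the read counts per gene that the authors deposited for each library. The authors also deposited TPM, which are scaled for transcript length within each library and were used here for ERBB2 only. The annotation release and the strand setting of the counting are not given in the sources used here, so reads of overlapping and antisense genes may be shared. Every listed gene had at least 1 count in each of the 9 libraries, so genes at 0 in any of them are not analysed here. Fold change and p-value columns of the authors' own comparisons were not used, nor were 18 further columns of per-sample values, the SNU-484 table and the short gene sheets.

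Counts were tested with edgeR 4.0.16 and limma 3.58.1 in R 4.3.3 (TMM factors, quasi-likelihood test, Benjamini-Hochberg threshold of 0.05), after genes were filtered by filterByExpr at its count limits of 10 per library and 15 in all. The 9 libraries entered 1 fit by treatment with no block, leaving 6 residual and 10.17 prior degrees of freedom. glmTreat tested for more than 1.2-fold. Adjusted p-values are from this fit, from the same fit without a library where one was left out, or from DESeq2 where it is named. The p-values measure the spread between these libraries, which may be technical. The ERBB2 permutation test was run with scipy 1.17.1 and tables were handled with pandas 2.3.3 in Python 3.11.15. Counts were also simulated from these libraries for 17130 genes, with changes set only in genes above 1 in average log2 CPM. The simulated T-DXd libraries had the vehicle means. The fit recovered 68% of the genes changed 1.2-fold, 90% at 1.5-fold and 100% at 2-fold and 3-fold, with 8 false calls. Recovery of changes in genes at lower levels was not simulated.

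The genes named were ERBB2, the called genes with the 12 strongest changes in each direction, provided that their average log2 CPM was at least 2 and that the groups did not overlap (read-through symbols and those starting with LOC, LINC, MIR or SNOR left out), up to 4 called members with an average log2 CPM of 1 or more in each of 37 gene lists (the 2 highest where none was called), and CD274, CGAS, STING1, IRF1, ISG15, IFIT1, DDX58, CCL5, ENPP1 and CD86, which the study names. Other genes named were chosen after their values were seen. The members and lists were chosen with earlier results of these data known. Promoter sequences are from RefSeq (GRCh38.p14), and transcript lengths are from GENCODE. Alternatives tried were another tool (DESeq2 1.42.0), other scalings (upper-quartile factors, RLE factors, total counts alone), no filter on low counts, at least 10 counts in every library, the 6 libraries compared alone, the replicate number as a block, and each of the 6 libraries left out in turn. A few genes that the rule named are not reported here.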

Additional observations from a re-analysis of the deposited data

How the results depend on the processing

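Against 1695 calls (635 higher and 1060 lower), the count stayed within 1.5 times under each of the 8 alternatives that left out no single library. It was 1751 (581 higher and 1170 lower) with RLE factors, 1572 (754 and 818) with upper-quartile factors and 1525 (530 and 995) with no filter. It was 1746 (700 and 1046) with at least 10 counts in every library, 1696 (618 and 1078) with the 6 libraries alone and 2183 (715 and 1468) with DESeq2. With the replicate block it was 1572 (590 and 982). It was 1365 with total counts alone, where 836 were higher and the 529 lower were under that limit. These scalings shifted the median of all genes by 0.032 or less, and the cause of the change in balance was not tested. The trastuzumab and vehicle libraries share only a number: their deviations from the group means correlated at -0.002, 0.003 and 0.041 for numbers 1, 2 and 3. Leaving out 1 library gave 993 to 1327 calls, 371 to 420 higher and 622 to 934 lower. The count went beyond 1.5 times without trastuzumab replicate 1 or vehicle replicate 1 or 3, and stayed within it without any other library. Past 1.2-fold there were 5 genes, all higher, and 2 to 7 with a library left out, again all higher, while the 6 libraries alone gave 4 higher and 1 lower. Of 155 genes named by the rule, 138 were called and 88 of these stayed called in all 14 alternatives. No called gene of these changed direction, while ERBB2, IFIT1, DDX58, CCL5 and ITGAX, which had no call, lay on either side of 0 across the alternatives (ERBB2 at -0.0045 to 0.032, IFIT1 at -0.07 to 0.03). ISG15 was the 1 that gained a call (DESeq2, adjusted p = 0.0496). UPP1 and DDX41 lost their calls in 10 alternatives, DDB2 in 9, TEAD4, CLDN4 and ATF3 in 8, and TFDP2, NT5E and CTSS in 7. Depth limits the low genes: the median standard error of a log2 fold change was 0.316 under 1 in average log2 CPM, where 1.3% were called, and 0.0327 at 5 or more.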
